A study of Homo sapiens with 12 samples.

Results

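Vitamin A circulates as retinol bound to RBP4 and is turned inside cells into retinoic acid, the ligand of the retinoic acid receptors. Retinol dehydrogenases such as RDH10 oxidise retinol to retinal, DHRS3 reduces retinal back to retinol, the ALDH1A enzymes oxidise retinal to retinoic acid, CRABP2 carries retinoic acid to its receptors, and CYP26A1 breaks it down. In the liver, hepatocytes make and secrete RBP4, and stellate cells store retinyl esters. The 9 genes described here are the retinal dehydrogenases ALDH1A1, ALDH1A2 and ALDH1A3, the carrier RBP4, the retinol and retinal enzymes RDH10, RDH11 and DHRS3, the oxidase CYP26A1 and the binding protein CRABP2. They were chosen by symbol from the 28256 gene symbols of the count table, keeping 1 transcript a symbol, the one with most counts summed over the libraries. Of the 9 genes, 5 had enough counts to be tested (ALDH1A1, RBP4, RDH10, RDH11 and DHRS3), among 13166 tested genes in all.

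RNA was sequenced from HepG2, an established human hepatoma line labelled wild type, in 12 libraries, 3 in each of 4 groups. All cells were first kept for 24 h in charcoal-stripped serum, which is depleted of steroid hormones, and then treated for 24 h. DexKLA cells received 50 nM dexamethasone (Dex, a synthetic glucocorticoid) together with KLA at a labelled dose of 100 ng/µl, Dex cells received dexamethasone alone, KLA cells received KLA alone, and DMSO cells received the vehicle at 0.1%. The labels do not spell out KLA, and they do not say whether the 3 libraries of a group came from separate cultures, so the p-values reflect how far these libraries scatter, and that scatter could be technical. Total counts per library were 4514606 to 11484497 in DexKLA, 3642685 to 17782057 in Dex, 15998657 to 20933501 in KLA and 3317740 to 5277463 in DMSO. Every KLA library was deeper than every DMSO library, so depth and treatment cannot be told apart in KLA versus DMSO. Every KLA library was also deeper than every DexKLA library, so the same holds for DexKLA versus KLA. Levels are given as CPM (counts per 1000000 counts of a library, after adjustment by the trimmed mean of M values, TMM, which sets the libraries to a common scale). All 10 hepatocyte markers passed the count filter, with summed levels of 122708 to 165749 CPM in DexKLA, 137218 to 142590 in Dex, 129280 to 135478 in KLA and 97393 to 114421 in DMSO, the lowest group. They moved both ways: in Dex versus DMSO AFP was called higher (log2 fold change 1.13) and FGB lower (-0.58), and likewise in DexKLA versus KLA (0.72 and -0.50). In KLA versus DMSO AFP was called higher, and APOB and HNF4A lower. Of the stellate cell markers, LRAT, DES, LHX2 and COL1A1 were at or near 0, whereas RELN (104 to 249 CPM), PDGFRB (21.0 to 30.6), ACTA2 (15.2 to 25.9) and RGS5 (0.563 to 3.32) were detected. Summed stellate markers were 184 to 241 in DexKLA, 148 to 195 in Dex, 150 to 243 in KLA and 269 to 300 in DMSO. Most of that sum was RELN, which averaged 167 in DexKLA, 130 in Dex, 152 in KLA and 232 in DMSO. RELN was called lower in Dex versus DMSO and in KLA versus DMSO. RGS5, with 2 to 5 counts a library in DMSO, was called higher in DexKLA versus DMSO (1.67, edgeR adjusted p = 0.0414). What these marker differences contribute to the results below was not tested.

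Of the retinal dehydrogenases in the ALDH1A subfamily, ALDH1A1 alone had more than 5 counts in these libraries. Over the 12 libraries it held 41993 counts, 99.99% of those of the 3 ALDH1A genes, while ALDH1A2 held 5 and ALDH1A3 held 1. Its level was lower in cells given dexamethasone than in their counterparts without it, by 24.1% in the absence of KLA and by 33.5% in its presence. The transcript counted (NM_000689, 2081 bases) lies at chr9:72900671-72953053 on the minus strand of hg38, and no other annotated exon overlaps it. The RefSeq window from 250 bases before to 50 bases after its start (GRCh38.p14, chr9:72953004-72953303, minus strand) is shown because, of the 5 tested members, this one had the largest mean dexamethasone effect, with the CCAAT box, a common proximal promoter element, in capitals.
ALDH1A1: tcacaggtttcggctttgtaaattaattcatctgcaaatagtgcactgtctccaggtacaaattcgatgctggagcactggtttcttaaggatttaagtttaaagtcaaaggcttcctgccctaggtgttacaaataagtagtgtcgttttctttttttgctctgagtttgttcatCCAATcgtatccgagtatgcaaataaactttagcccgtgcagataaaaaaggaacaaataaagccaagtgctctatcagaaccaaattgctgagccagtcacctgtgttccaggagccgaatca
The motif CCAAT, searched on both strands, was found 74 bases before the start and is present in 34.6% of 35116 promoter windows of the same length. The glucocorticoid response element, AGAACA and TGTTCT with any 3 bases between, is held by 1 of the 35116 windows and by none of the 14 windows read for 8 of the 9 genes. Its right-hand part TGTTCT alone is found in 14.8% of all windows and not in this one. On the opposite strand it lies 54 bases before an RBP4 start and 187 bases before an ALDH1A2 start. Neither is the start of the transcript counted. A motif match, or its lack, describes these letters only.

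ALDH1A1 stood at 310, 286 and 255 CPM in the DexKLA libraries and at 278, 268 and 261 in the Dex libraries. It stood at 406, 442 and 430 in the KLA libraries and at 320, 385 and 357 in the DMSO libraries. All 6 libraries with dexamethasone were thus below all 6 without it. The group means were 283.6 ± 27.9 in DexKLA, 269.0 ± 8.8 in Dex, 426.3 ± 18.3 in KLA and 354.1 ± 32.7 in DMSO (SD, n = 3 each).

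**Figure D1:**
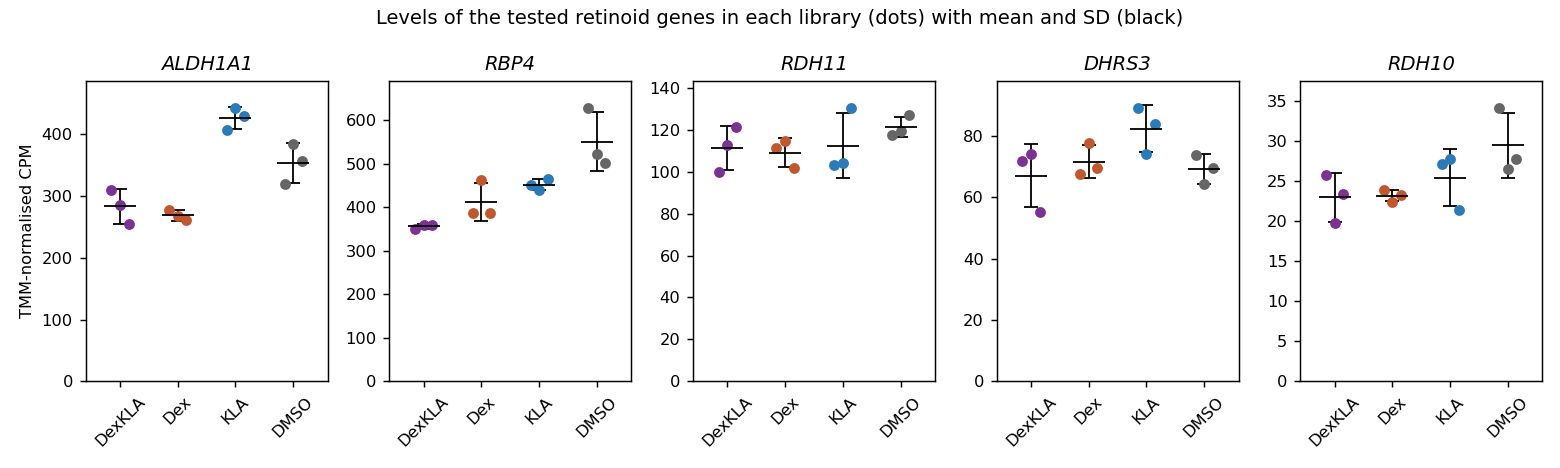
Level of each of the 5 tested genes in CPM (TMM scaling, linear axis from 0) in DexKLA, Dex, KLA and DMSO cells; dots are the 3 libraries of a group and the bar is their mean with its SD. ALDH1A1 lies at 255 to 310 in the 6 libraries with dexamethasone and at 320 to 442 in the 6 without, and RBP4 is lowest in DexKLA (349 to 359) and highest in DMSO (502 to 627).

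Each contrast was taken from 1 edgeR quasi-likelihood fit to all 12 libraries, and a gene was called at a Benjamini-Hochberg adjusted p under 0.05 over the 13166 genes. In DexKLA versus KLA, ALDH1A1 fell by 33.5%, a log2 fold change of -0.59 ± 0.10 (SE) with an adjusted p of 0.00385 in that edgeR test. In this comparison 0.653% of all tested genes were called, 0.213% as lower, and 1 of the 5 tested members was called, as lower. In Dex versus DMSO, which shares no library with that contrast, the log2 fold change was -0.40 ± 0.10 and the edgeR adjusted p 0.0489. There 2.05% of all tested genes were called, 0.835% as lower, and 2 of the 5 members, ALDH1A1 and RBP4, both as lower. This second call sat at the threshold: the edgeR adjusted p was 0.0532 to 0.210 without any 1 of DexKLA replicate 2, the 3 Dex replicates, KLA replicates 1 and 2, or the 3 DMSO replicates, with log2 fold changes between -0.47 and -0.33. With both contrasts averaged, the dexamethasone effect on ALDH1A1 was -0.49 ± 0.07 on the log2 scale (edgeR adjusted p = 0.000278), where 1.51% of tested genes were called, 0.638% as lower, and 2 of the 5 members, both as lower. Within the 6 shallower libraries alone, Dex versus DMSO was -0.39 (edgeR adjusted p = 0.0242), and within the 6 deeper ones DexKLA versus KLA was -0.60 (0.355). Among the deeper libraries each KLA library still held more counts than each DexKLA library, so that fit cannot tell depth from treatment. With depth class in the model over all 12 libraries, Dex versus DMSO was -0.39 and not called (edgeR adjusted p = 0.102). From the 6 libraries of the compared groups alone, DexKLA versus KLA was -0.60 and not called (edgeR adjusted p = 0.0519). The mean effect was called in all 22 alternative fits, between -0.54 and -0.46.

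The other contrasts of ALDH1A1 were not called. In KLA versus DMSO all 3 KLA libraries were above all 3 DMSO libraries, with a log2 fold change of 0.27 ± 0.10 and an edgeR adjusted p of 0.0822, against a background in which 13.7% of tested genes and 0 of the 5 members were called. With the depth class of the library in the model it was 0.28 (edgeR adjusted p = 0.368). In DexKLA versus DMSO the log2 fold change was -0.32 ± 0.10 (edgeR adjusted p = 0.0773), in a comparison with 4.22% of tested genes called and 1 of the 5 members. In DexKLA versus Dex it was 0.08 ± 0.10, with a 95% interval of -0.14 to 0.29. The interaction, which asks whether dexamethasone acted differently with KLA present, was -0.19 ± 0.15 (95% interval -0.49 to 0.11, edgeR adjusted p = 0.461), with 0.0380% of tested genes called. In DexKLA versus Dex edgeR called 0 genes (0.00%), 935 genes had an unadjusted p under 0.05, and DESeq2 also called 0.

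**Figure D2:**
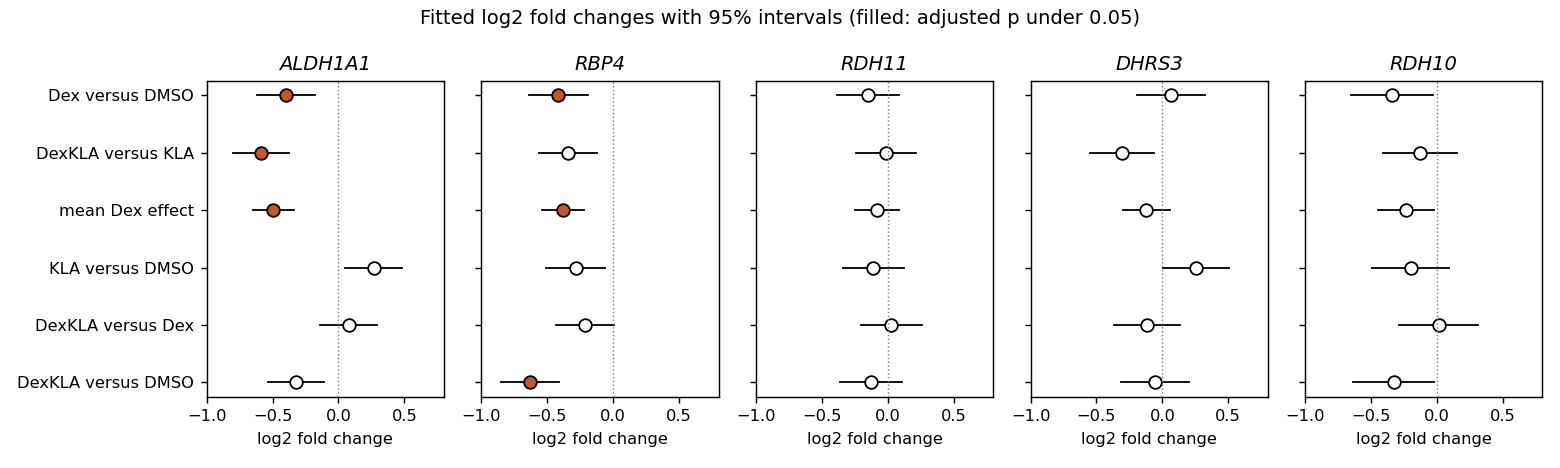
Fitted log2 fold change (first-named group over the second) of the 5 tested genes in 6 of the 7 comparisons (the interaction is not drawn), with 95% intervals from the edgeR fit; filled points passed an adjusted p under 0.05. ALDH1A1 passes in DexKLA versus KLA (-0.59), Dex versus DMSO (-0.40) and the mean Dex effect (-0.49), and RBP4 in DexKLA versus DMSO (-0.63), Dex versus DMSO (-0.42) and the mean Dex effect (-0.38).

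The other retinal dehydrogenases of the subfamily gave no level to compare. ALDH1A2 had 0 counts in the 3 DexKLA libraries, 0, 2 and 0 in Dex, 1, 0 and 0 in KLA, and 0, 1 and 1 in DMSO. ALDH1A3 had 1 count in KLA replicate 3 and 0 in the other 11 libraries. A count of 0 allows up to 0.143 CPM in the deepest library and 0.904 in the shallowest (3 counts of the plain library total, without TMM, counting error only). Antisense transcripts overlap exons of both genes, and the libraries' strand is not given in the sources used here.

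RBP4, the blood carrier of retinol that hepatocytes secrete, was the most abundant of the 9 genes. It was lowest in cells given both agents and highest in vehicle-treated cells. RBP4 measured 349, 359 and 359 CPM in the DexKLA libraries, 386, 462 and 388 in Dex, 451, 440 and 464 in KLA, and 627, 523 and 502 in DMSO. The DexKLA libraries were below all 9 others, and the DMSO libraries were above all 9 others. Group means were 355.7 ± 5.69 in DexKLA, 412.0 ± 43.3 in Dex, 451.8 ± 12.3 in KLA and 550.8 ± 66.8 in DMSO (SD, n = 3 each).
In DexKLA versus DMSO RBP4 fell by 35.4%, with a log2 fold change of -0.63 ± 0.11 and an edgeR adjusted p of 0.00305. That call was kept in all 24 alternative fits, and in this comparison 1.38% of tested genes were called lower. In Dex versus DMSO it fell by 25.0% (-0.42 ± 0.11, edgeR adjusted p = 0.045), a call kept in 11 of 24 alternative fits and lost, at an edgeR adjusted p of 0.0528 to 0.190, without any 1 of the same 9 libraries as for ALDH1A1. Within the shallower libraries alone Dex versus DMSO was -0.51 (edgeR adjusted p = 0.00222), and with depth class in the model it was -0.46 and not called (0.0633). The mean dexamethasone effect was -0.38 ± 0.08 (edgeR adjusted p = 0.00658) and was called in all 22 alternative fits. KLA versus DMSO (-0.29 ± 0.11, edgeR adjusted p = 0.0736), DexKLA versus KLA (-0.35 ± 0.11, 0.216) and DexKLA versus Dex (-0.21 ± 0.11, 0.702) were not called. RBP4 is short (1062 bases), and with each library's trend on transcript length removed KLA versus DMSO was -0.53 and called, at an edgeR adjusted p of 0.00872. The interaction was 0.07 ± 0.15 (95% interval -0.24 to 0.38).

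The RBP4 transcript counted (NM_006744) lies at chr10:93591694-93601235, minus strand, hg38, with no overlapping exon of another gene. Its RefSeq window (GRCh38.p14, chr10:93601186-93601485, minus strand) is shown because RBP4 was, with ALDH1A1, the other member called lower with dexamethasone, with the TATA box in capitals.
RBP4: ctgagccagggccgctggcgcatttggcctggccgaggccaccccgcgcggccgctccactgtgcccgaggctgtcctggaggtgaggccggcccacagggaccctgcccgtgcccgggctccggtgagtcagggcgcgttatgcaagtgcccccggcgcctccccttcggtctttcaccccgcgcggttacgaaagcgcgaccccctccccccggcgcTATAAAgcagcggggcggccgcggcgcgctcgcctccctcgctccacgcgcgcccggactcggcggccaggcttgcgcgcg
The motif TATAAA was found 31 bases before the start, on the strand of the gene, and 11.5% of all windows hold it on either strand.

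Within a library the ratio of ALDH1A1 to RBP4 counts does not depend on the scaling. It was 0.888, 0.796 and 0.710 in DexKLA, 0.720, 0.580 and 0.673 in Dex, 0.900, 1.01 and 0.927 in KLA, and 0.510, 0.736 and 0.711 in DMSO. The 3 KLA libraries had the highest ratios of all 12, and the Dex and DMSO ranges overlapped. The ratio of ALDH1A1 to DHRS3 counts was 4.33, 3.86 and 4.62 in DexKLA and 4.11, 3.45 and 3.75 in Dex. It was 4.57, 5.98 and 5.13 in KLA and 4.34, 5.99 and 5.15 in DMSO. By that ratio KLA and DMSO overlapped, DexKLA and KLA overlapped too, and all Dex libraries were below all DMSO libraries. These ratios were chosen after the values were seen and are given as a description.

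The member enzymes between retinol and retinal, RDH10, RDH11 and DHRS3, were called in none of the 7 comparisons. RDH10, which makes retinal from retinol, measured 25.8, 19.7 and 23.4 CPM in DexKLA, 23.8, 22.4 and 23.3 in Dex, 27.2, 27.7 and 21.4 in KLA, and 34.1, 26.6 and 27.7 in DMSO. Every Dex and every DexKLA library was below every DMSO library, with log2 fold changes of -0.34 ± 0.15 (edgeR adjusted p = 0.203) and -0.33 ± 0.15 (0.201), and the mean dexamethasone effect was -0.24 ± 0.10 (0.46). The RDH10 transcript (NM_172037, chr8:73294602-73325281, plus strand, hg38) shares 278 exonic bases with the antisense gene RDH10-AS1.

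RDH11, an enzyme that reduces retinal in many tissues, measured 100, 113 and 121 CPM in DexKLA, 111, 115 and 102 in Dex, 103, 104 and 130 in KLA, and 118, 119 and 127 in DMSO. Its groups overlapped except for Dex and DMSO, where all 3 Dex libraries were lower (log2 fold change -0.15 ± 0.11, edgeR adjusted p = 0.473). The 95% interval of its mean dexamethasone effect ran from -0.25 to 0.08. The RDH11 transcript (NM_016026, chr14:67676801-67695764, minus strand, hg38) shares 346 exonic bases with AL049779.1 on the same strand.

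DHRS3, which returns retinal to retinol and is itself a retinoic acid target, measured 71.6, 74.1 and 55.2 CPM in DexKLA, 67.6, 77.6 and 69.5 in Dex, 88.9, 73.9 and 83.8 in KLA, and 73.8, 64.2 and 69.4 in DMSO. All KLA libraries were above all DMSO libraries, at a log2 fold change of 0.25 ± 0.12 (edgeR adjusted p = 0.153). In DexKLA versus KLA it was -0.31 ± 0.12 (edgeR adjusted p = 0.359), the interaction was -0.37 ± 0.17 (0.208), and Dex versus DMSO was 0.06 ± 0.12, a sign that turned to -0.04 when libraries were scaled by their totals. The DHRS3 transcript (NM_004753, chr1:12567910-12618210, minus strand, hg38) overlaps no other annotated exon.

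Groups that did not overlap were counted among the 5 tested members and among all tested genes. All libraries of the first-named group were lower for 4 members in Dex versus DMSO (13.6% of tested genes), 1 in KLA versus DMSO (18.3%), 3 in DexKLA versus DMSO (12.8%), 2 in DexKLA versus KLA (7.16%) and 1 in DexKLA versus Dex (6.31%). Those with all libraries higher were 2 members in KLA versus DMSO, ALDH1A1 and DHRS3, where 17.9% of tested genes did so.

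CYP26A1, the oxidase that clears retinoic acid and a gene that retinoic acid strongly induces, was near 0. After rounding, the transcript counted had 0, 2 and 0 counts in DexKLA, 0 in all Dex and KLA libraries, and 3, 0 and 0 in DMSO. Its deposited value in Dex replicate 3 was 0.5. The other CYP26A1 transcript, not used, held 1 in DMSO replicate 3. Over the 3 KLA libraries together a count of 0 allows up to 0.0540 CPM of their plain totals. CRABP2 had 11, 2 and 3 counts in DexKLA, 3, 11 and 2 in Dex, 14, 16 and 16 in KLA, and 2, 6 and 1 in DMSO, which is 0.227 to 1.18 CPM of the plain library totals, without TMM. With no filter on low counts, edgeR called none of these 4 low genes in any of the 7 comparisons, the lowest adjusted p being 0.0975 for CYP26A1 in KLA versus DMSO. The CYP26A1 transcript shares 750 exonic bases with AL358613.3. Its RefSeq window (GRCh38.p14, chr10:93073643-93073942, plus strand) is shown for the retinoic acid element it carries, a pair of direct repeats spaced by 5 bases, in capitals.
CYP26A1: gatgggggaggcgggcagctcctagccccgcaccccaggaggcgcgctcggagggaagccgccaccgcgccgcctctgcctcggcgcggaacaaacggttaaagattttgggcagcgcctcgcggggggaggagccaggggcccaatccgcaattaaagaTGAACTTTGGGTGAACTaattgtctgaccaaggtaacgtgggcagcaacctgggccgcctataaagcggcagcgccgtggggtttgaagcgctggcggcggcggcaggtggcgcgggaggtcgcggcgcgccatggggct
The element, AGTTCA repeated in the same direction with any 5 bases between, was found on the opposite strand, 90 bases before the start, and 4 of the 35116 windows (0.0114%) hold it on either strand. The same arrangement of AGGTCA is in 2 windows and in none of the members' windows.

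Divided by transcript length, the mean levels over the 4 groups were, in CPM per kilobase, 416.7 for RBP4, 160.1 for ALDH1A1, 44.9 for RDH11, 33.0 for DHRS3, 6.39 for RDH10, 0.715 for CRABP2, 0.0517 for CYP26A1, 0.0130 for ALDH1A2 and 0.00135 for ALDH1A3. The group means kept this order down to CRABP2 in each of the 4 groups. Within each group the libraries of neighbouring genes in this order did not overlap down to CRABP2, but in KLA cells RDH11 (44.4 ± 6.09) and DHRS3 (37.5 ± 3.48) differed by little more than their SDs. The last 3 genes rest on 1 to 5 counts and cannot be ordered.

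In the wider pathway, genes of 6 lists were set beside the members. In KLA versus DMSO 1806 genes were called in all, against 4 with depth class in the model and 5 without DMSO replicate 1. In DexKLA versus DMSO the count was 48 without that library, against 556 with it. Library deviations ran with transcript length at Spearman's rho of 0.19 to 0.40 in DMSO and -0.53 to -0.15 in KLA. The range was -0.53 to 0.14 in Dex and -0.13 to 0.39 in DexKLA. With that trend removed, 1064 genes were called in KLA versus DMSO. Calls of single list or marker genes in that fit are not given. The median log2 fold change of all tested genes was 0.00 in DexKLA versus KLA and -0.01 in Dex versus DMSO, against which list medians are read. Of 19 uptake, transport and storage genes, 11 were tested, and CD36, a fatty acid and carotenoid transporter, was higher with dexamethasone. CD36 averaged 20.9 ± 1.64 CPM in DexKLA, 15.9 ± 0.541 in Dex, 12.03 ± 0.980 in KLA and 8.72 ± 2.10 in DMSO (SD, n = 3 each). Its log2 fold change was 0.81 ± 0.14 in DexKLA versus KLA (edgeR adjusted p = 0.00385) and 0.85 ± 0.18 in Dex versus DMSO (0.0137). In the same list DGAT1, which can esterify retinol, was lower in DexKLA versus DMSO (-0.42 ± 0.12, edgeR adjusted p = 0.0458). The list median was -0.09 in DexKLA versus KLA and 0.08 in Dex versus DMSO.

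Of 27 retinol, retinal and carotenoid enzymes, 17 were tested. In KLA versus DMSO 5 were called higher and 0 lower, namely ADH4 (log2 fold change 0.58), ADH5 (0.48), AKR1B10 (0.59), AKR1C3 (0.58) and RDH14 (0.37), and the list median was 0.15. Across all tested genes 7.78% were called higher in that comparison. In DexKLA versus KLA 1 was called higher and 2 lower. ADH4, an alcohol dehydrogenase that oxidises retinol, averaged 72.6 ± 3.48 CPM in DexKLA and 113 ± 17.1 in KLA (log2 fold change -0.64 ± 0.12, edgeR adjusted p = 0.0104). AKR1B10, an aldo-keto reductase that reduces retinal, averaged 72.3 ± 9.69 in DexKLA and 118 ± 11.4 in KLA (-0.71 ± 0.12, edgeR adjusted p = 0.00228). HSD17B6, a microsomal retinol and steroid dehydrogenase, was higher, at 4.08 ± 1.33 in DexKLA and 1.51 ± 0.393 in KLA (1.32 ± 0.30, edgeR adjusted p = 0.0372). In Dex versus DMSO 0 of the 17 were called, where 2.05% of all tested genes were. The AKR1 and ADH genes have close paralogs, so reads may be split among them.

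Of 12 genes of retinoic acid oxidation and binding, 6 were tested, and CYP3A5 and CYP3A7, cytochromes that oxidise retinoic acid among many substrates, were called higher in DexKLA versus KLA and in Dex versus DMSO. CYP3A5 averaged 15.5 ± 1.17 CPM in DexKLA, 14.6 ± 2.15 in Dex, 9.44 ± 1.41 in KLA and 6.72 ± 0.989 in DMSO. CYP3A7 averaged 33.4 ± 3.74 in DexKLA, 31.6 ± 0.742 in Dex, 18.9 ± 0.949 in KLA and 21.1 ± 4.15 in DMSO. These genes resemble each other closely, and their counts are uncertain to that extent. UGT2B7, which conjugates retinoic acid, was higher in KLA versus DMSO (0.62 ± 0.15, edgeR adjusted p = 0.0137) and in DexKLA versus DMSO (0.70 ± 0.15, 0.0164). The list median was 0.33 in DexKLA versus KLA and 0.45 in Dex versus DMSO.

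Of 13 nuclear receptors and corepressors 10 were tested, with 0 called in either dexamethasone comparison. Across all tested genes 0.653% were called in DexKLA versus KLA and 2.05% in Dex versus DMSO. In KLA versus DMSO the corepressor NCOR1 (-0.45) and the receptor PPARD (-0.46) were among those called lower, with a list median of -0.27. RARA was present at 9.64 to 18.3 CPM, and RARB had at most 2 counts in a library. Of 22 retinoic acid target genes 8 were tested, and the 1 called was RARRES2 (chemerin), higher in KLA versus DMSO at 0.43 ± 0.13 (edgeR adjusted p = 0.0379). In that comparison 13.7% of all tested genes were called. Of 16 other aldehyde dehydrogenases 15 were tested, with 0 called in DexKLA versus KLA. ALDH4A1, a mitochondrial enzyme of proline breakdown, was higher in Dex versus DMSO (0.48 ± 0.11, edgeR adjusted p = 0.0271), and ALDH5A1, which oxidises succinic semialdehyde, was lower in KLA versus DMSO (-0.44 ± 0.13, 0.0263).

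**Figure D3:**
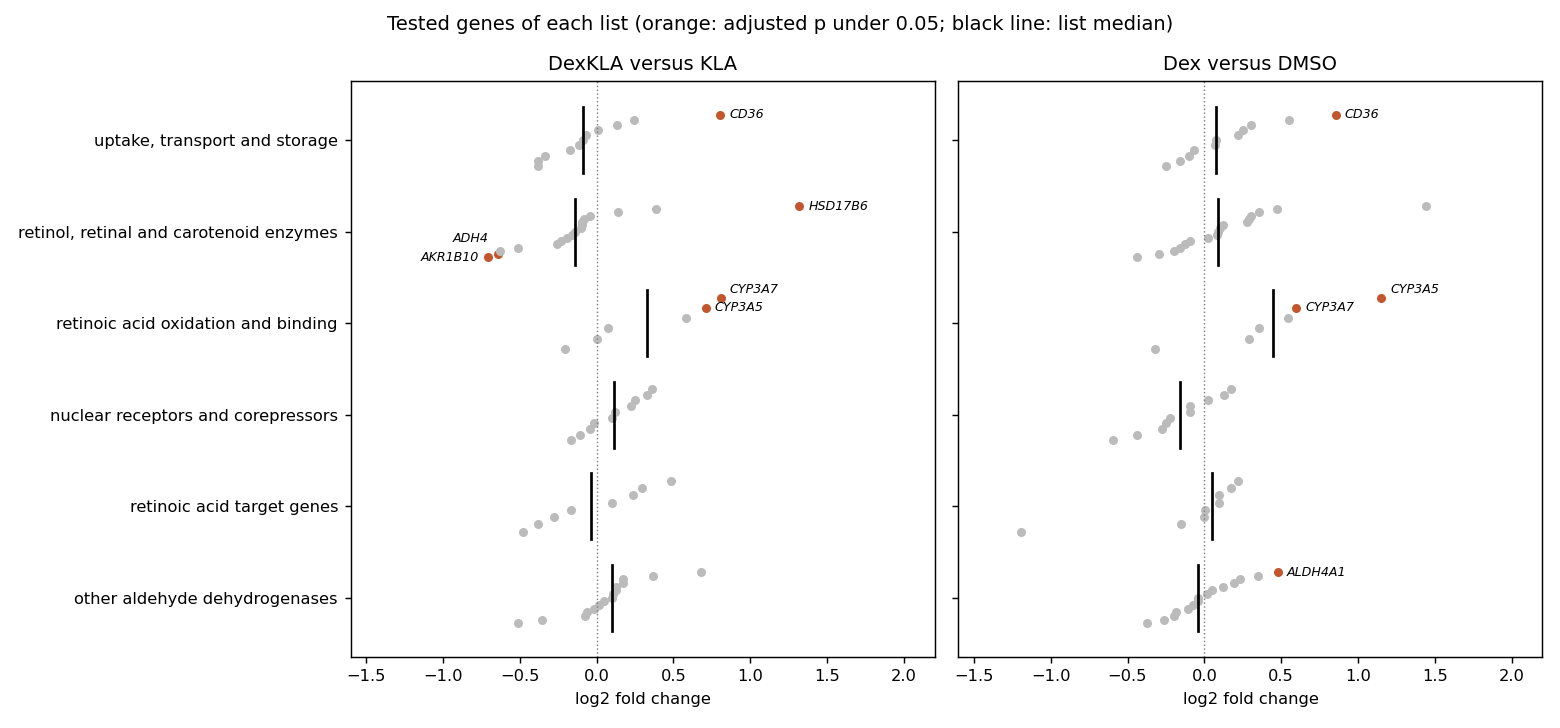
Log2 fold change of each tested gene in the 6 pathway lists, in DexKLA versus KLA (left) and Dex versus DMSO (right); orange points passed an adjusted p under 0.05 and are named, and black lines are list medians. CD36, CYP3A5 and CYP3A7 pass as higher in both panels, and ADH4 and AKR1B10 pass as lower in DexKLA versus KLA.

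The genes whose levels ran most like ALDH1A1 were ranked by Pearson's r of log2 CPM over the 12 libraries, among 12386 genes with a mean of at least 1 on that scale. The 5 highest were AKR1C2 (r = 0.95), AKR1C1 (0.93), MAL2 (0.93), NT5E (0.92) and AKR1B10 (0.91), of which 3 are aldo-keto reductases. The 3 lowest were IL1RN (-0.97), ANPEP (-0.94) and CAVIN2 (-0.94). These r values describe 12 libraries that share 4 groups and their depth differences. AKR1C1, a hydroxysteroid dehydrogenase, measured 400, 337 and 338 CPM in DexKLA, 344, 319 and 344 in Dex, 742, 649 and 904 in KLA, and 624, 657 and 618 in DMSO, so that all 6 libraries with dexamethasone lay below all 6 without. IL1RN, the interleukin-1 receptor antagonist, measured 48.7, 48.7 and 50.5 in DexKLA, 51.6, 53.7 and 49.3 in Dex, 39.6, 35.8 and 37.1 in KLA, and 46.5, 39.8 and 41.9 in DMSO, with the order of the 2 sets of libraries the other way round. Among the tested members r with ALDH1A1 was 0.51 for DHRS3, 0.46 for RBP4, 0.34 for RDH10 and 0.13 for RDH11.

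**Figure D4:**
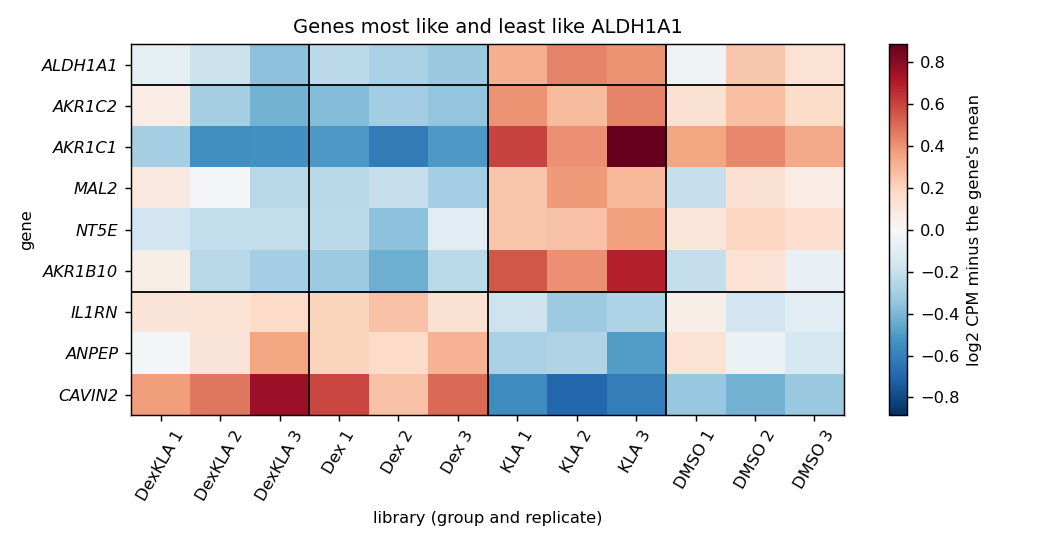
Levels of ALDH1A1 and of the genes most and least like it over the 12 libraries, as log2 CPM relative to each gene's mean, ordered by group (DexKLA, Dex, KLA, DMSO). AKR1C2, AKR1C1, MAL2, NT5E and AKR1B10 (r from 0.91 to 0.95) run with ALDH1A1, and IL1RN, ANPEP and CAVIN2 (r from -0.97 to -0.94) run opposite to it.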

How the data were processed

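RNA of 12 HepG2 libraries was measured by sequencing. Per the submitters' processing notes the authors used Trimmomatic, BWA 0.7.17, HOMER 4.10 and the hg38 build, and the role of each is not given in the sources used here. The deposited values for 70507 transcripts came in steps of 0.5 and were taken to be expected counts as the authors deposited them. Each was rounded to the nearest whole number. Rows with no symbol (406, 1.71% to 2.55% of a library) were left out, and the transcript with the highest total was kept per symbol.

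The tests used edgeR 4.0.16 (R 4.3.3): filterByExpr (minimum count 10), TMM scaling, 1 mean per group over all 12 libraries (8 residual degrees of freedom), and Benjamini-Hochberg adjustment over 13166 genes. SEs are the fold change over the square root of F. Raw limits use plain library totals. A self-test on simulated counts was run. Of the variance, 27.9% lay on principal component 1, with DMSO replicate 1 and KLA replicate 3 at its ends. Libraries' deviations ran with transcript length at Spearman's rho of -0.53 to 0.40 across genes. Replicates differed by more than sampling noise. Same-numbered libraries did not deviate together, but that cannot decide whether they were prepared together, and the labels do not say.

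Named were all 9 members, each list gene called in any comparison (1 is not reported here), and the 5 most and 3 least ALDH1A1-like genes. The members and lists were chosen with earlier results of these data known. Alternatives included the size factors and test of DESeq2 1.42.0, other filters, and leaving out each library. Promoters came from the RefSeq table for GRCh38.p14, and overlaps from the gene annotation.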

Additional observations from a re-analysis of the deposited data

How the results depend on the processing

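ALDH1A1 and RBP4 were called for the mean dexamethasone effect in all 22 alternatives, and RBP4 in DexKLA versus DMSO in all 24. ALDH1A1 in Dex versus DMSO kept its direction in all 24 and its call in 12. It was -0.39 and not called with DESeq2 size factors (edgeR adjusted p = 0.0530) and with the depth class in the model (-0.39, 0.102). In DexKLA versus KLA it was -0.60 and not called with the libraries of the compared groups alone (edgeR adjusted p = 0.0519). With the deeper libraries alone it was also -0.60 and not called. Each of those fits held 6 libraries, against 12 in the main fit. In KLA versus DMSO it was called by DESeq2 (0.28), and in DexKLA versus DMSO with library size alone (-0.43), the length trend removed (-0.35) and DESeq2 (-0.32). The cause was not tested.

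Same-numbered libraries did not deviate together (1 of 18 same-numbered pairs had r over 0.1, range -0.31 to 0.17). This cannot decide whether the numbers pair them. With the replicate block, ALDH1A1 in Dex versus DMSO was -0.40 (edgeR adjusted p = 0.0841), 0 members were called there, and genes called were 134 in Dex versus DMSO, 325 in DexKLA versus DMSO and 0 for the interaction.

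Genes called in Dex versus DMSO (270) were 909 with no filter, 129 with depth class, 650 by DESeq2, 1348 from the compared groups alone and 491 from the shallower libraries. Members called there (2) were 0 with DESeq2 size factors and with depth class, and 1 without DMSO replicate 1 and KLA replicate 3, the pair at the ends of principal component 1 (left out after seeing the data, as were the fits to 1 depth class). In KLA versus DMSO (1806) they were 4 with depth class, 1064 with the length trend removed and 5 without that pair, and members called (0) were 1 with library size alone, 1 with the length trend removed and 2 by DESeq2. In DexKLA versus DMSO (556) they were 987 with no filter, 173 with depth class, 920 by DESeq2, 183 without the pair and 902 from the shallower libraries, and members called (1) were 2 with library size alone, the length trend removed and DESeq2. In DexKLA versus KLA (86) they were 204 with no filter, 38 from the compared groups alone and 16 from the deeper libraries, and members called (1) were 0 in both of those last fits. In DexKLA versus Dex (0) they were 12 with no filter, and for the mean Dex effect (199) 312 with no filter. For the interaction (5) they were 0 with DESeq2 size factors, 230 with library size alone, 1040 with no filter, 0 with depth class, 2 with the length trend removed, 705 by DESeq2 and 0 without the pair.

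Leaving out 1 library at a time gave 56 to 915 genes in Dex versus DMSO (lowest without Dex replicate 2), 5 to 2363 in KLA versus DMSO (lowest without DMSO replicate 1), 48 to 1461 in DexKLA versus DMSO (lowest without DMSO replicate 1), 52 to 94 in DexKLA versus KLA, 139 to 317 for the mean Dex effect and 0 to 681 for the interaction. Members called ranged from 0 to 2 in Dex versus DMSO and KLA versus DMSO and from 1 to 2 in DexKLA versus DMSO. ALDH1A1 ranged from -0.47 to -0.33 in Dex versus DMSO, 0.20 to 0.33 in KLA versus DMSO and -0.39 to -0.25 in DexKLA versus DMSO. It was called in KLA versus DMSO without DexKLA replicate 3 (edgeR adjusted p = 0.0430) and in DexKLA versus DMSO without KLA replicate 3 (0.0497).

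The sign turned, never with a call, for DHRS3 in Dex versus DMSO with library size alone (-0.037), the length trend removed (-6.6e-05) and the shallower libraries (-0.0039), and ranged from -0.0071 to 0.11 when 1 library was left out. DHRS3 turned from the shallower libraries in DexKLA versus DMSO (0.11; -0.12 to 0.079 with 1 left out) and DexKLA versus Dex (0.11; -0.19 to 0.014). RDH10 turned in KLA versus DMSO without the pair (0.019) and in DexKLA versus Dex with the replicate block (-0.0027), depth class (-0.021), the length trend removed (-0.021) and the shallower libraries (-0.26), with -0.075 to 0.092 when 1 was left out. RDH11 turned in DexKLA versus KLA with library size alone (0.0031), the length trend removed (0.019) and without the pair (0.11), with -0.083 to 0.11 when 1 was left out, and in DexKLA versus Dex from the deeper libraries (-0.059; -0.043 to 0.10). The interaction turned without the pair for RBP4 (-0.013; -0.032 without DMSO replicate 1, to 0.16) and RDH10 (-0.0010). Without TMM scaling the median of all tested genes moved to -0.11 in Dex versus DMSO, -0.13 in KLA versus DMSO, -0.12 in DexKLA versus DMSO and 0.13 for the interaction, and the share of called genes that were higher was 26.3%, 23.7% and 27.7% in the first 3, against 59.3%, 56.7% and 67.3% with TMM, and 45.7% against 57.8% for the mean Dex effect.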
